A study of Mus musculus with 24 samples.

Results

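Laminins are the glycoproteins on which basement membranes are built, and nidogen and perlecan tie them to the collagen IV network. The 9 genes described here were chosen by symbol as the laminin chain genes Lama2, Lama3, Lama4, Lama5, Lamb1, Lamb3 and Lamc1 and the linker genes Nid1 (nidogen 1) and Hspg2 (perlecan). All 9 were found among the 18368 genes measured. RNA was taken from 12 CD1 mice, an outbred stock, wounded at 7 weeks of age with hair follicles in telogen, the resting phase. Each mouse was wounded at a single site, abdomen, back or cheek (4 mice per site), by punch excision of 2 mm, with 1 wound in the cheek and 2 in the abdomen or back. At day 3 a wound and the adjacent unwounded skin were collected from the same animal with a punch of the same width, giving 24 libraries in 6 groups of 4. The labels name no transgene or deletion, and all comparisons were between injured and uninjured skin or between sites. The labels do not say whether a wound library held 1 wound or both wounds of a mouse. Values were deposited as FPKM (fragments per kilobase of transcript, relative to all mapped fragments of the library), which corrects for gene length but keeps no counts, so sequencing depth and counting error are unknown.

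A laminin is a cross-shaped trimer of 1 alpha, 1 beta and 1 gamma chain, and the alpha chain carries most of the contacts with cell receptors. In skin, the trimer that holds the alpha 3 and beta 3 chains is made by basal keratinocytes and anchors the epidermis through hemidesmosomes, and it is laid down by keratinocytes that migrate over a wound. Chains alpha 4 and alpha 5, with beta 1 and gamma 1, build the laminins of blood vessels, alpha 5 is also a chain of the mature epidermal basement membrane, and alpha 2 is the laminin alpha chain of muscle fibres and Schwann cells. Nidogen bridges laminin and collagen IV, and perlecan, a large heparan sulfate proteoglycan, joins the same network and holds growth factors.

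Nidogen grips laminin through a single loop in the gamma 1 chain. The coding bases for that loop, with their flanks in the same exon, are shown because they tie a laminin gene of the set to a linker gene of the set. They lie in exon 14 of 28 of Lamc1 on the minus strand, at chr1:153243316-153243426 (GRCm38, GENCODE), and the capitals mark the 21 bases of the loop.
Lamc1 nidogen loop: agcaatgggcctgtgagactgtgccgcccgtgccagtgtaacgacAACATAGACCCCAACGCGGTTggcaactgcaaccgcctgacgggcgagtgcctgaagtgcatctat
The longest transcripts of Lamc1 and Lamc3 (the gamma 3 chain) were translated and searched for the exact amino acids of this loop. It was found 1 time in Lamc1 and 0 times in Lamc3. A loop that differs at any residue is missed, so the search cannot show whether gamma 3 has a nidogen site. The promoters of both linkers are shown because their RNAs gave different wound estimates, as described below. That difference and the part of promoter motifs in it were not tested. Both are on the plus strand of GRCm38.p6, from RefSeq, and end at the base before the gene's first annotated base. For Hspg2 they are the 198 bases of chr4:137468553-137468750, and for Nid1 the 250 bases of chr13:13437352-13437601. Capitals mark GC boxes (GGGCGG, on either strand) and CCAAT boxes (CCAAT, on either strand).
Hspg2 promoter: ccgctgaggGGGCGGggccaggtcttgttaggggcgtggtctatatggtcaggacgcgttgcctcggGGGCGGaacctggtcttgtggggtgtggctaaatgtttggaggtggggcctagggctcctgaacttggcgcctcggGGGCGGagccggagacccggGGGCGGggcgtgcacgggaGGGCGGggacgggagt
Nid1 promoter: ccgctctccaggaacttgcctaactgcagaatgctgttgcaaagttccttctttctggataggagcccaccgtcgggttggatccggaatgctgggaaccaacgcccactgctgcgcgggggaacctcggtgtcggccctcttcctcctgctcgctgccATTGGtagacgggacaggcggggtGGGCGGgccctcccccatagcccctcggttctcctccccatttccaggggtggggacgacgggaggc
The Hspg2 window held 5 GC boxes and the Nid1 window 1 GC box and 1 CCAAT box. Over 32851 promoter windows of 250 bases, 32.7% held a GC box and 33.8% a CCAAT box. A promoter window was found for 6 of the 9 genes (7 windows), and not for Lama3, Lama4 or Lamc1. The AP-1 motif TGANTCA matched in 0 of these 7 windows, against 6.75% of all windows. So few windows cannot tell 0 from that share. A match is a run of letters and not a bound site.

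All 9 genes passed the filter for low values in each fit (at least 0.5 FPKM in at least 4 libraries). In the 12 unwounded libraries the order by median level per length was Nid1 (54.0 FPKM), Lamc1 (38.9 FPKM), Lamb3 (26.4 FPKM), Lama4 (15.9 FPKM), Hspg2 (14.9 FPKM), Lamb1 (12.8 FPKM), Lama2 (12.3 FPKM), Lama3 (10.6 FPKM) and Lama5 (3.12 FPKM). Nid1 exceeded Lamc1 in 12 of 12 unwounded libraries, Lamb3 exceeded Lama4 in 12 of 12 and Lama3 exceeded Lama5 in 12 of 12. Neighbours in the middle of the order were not separated: Lama4 was above Hspg2 in 8 of 12 libraries, Hspg2 above Lamb1 in 8 of 12 and Lamb1 above Lama2 in 6 of 12. The order changed in wounds. Lama2 was above Lama3 in 9 of 12 unwounded libraries and in 0 of 12 wound libraries, and Lamc1 was above Lamb3 in 11 of 12 unwounded and 3 of 12 wound libraries.

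**Figure D1:**
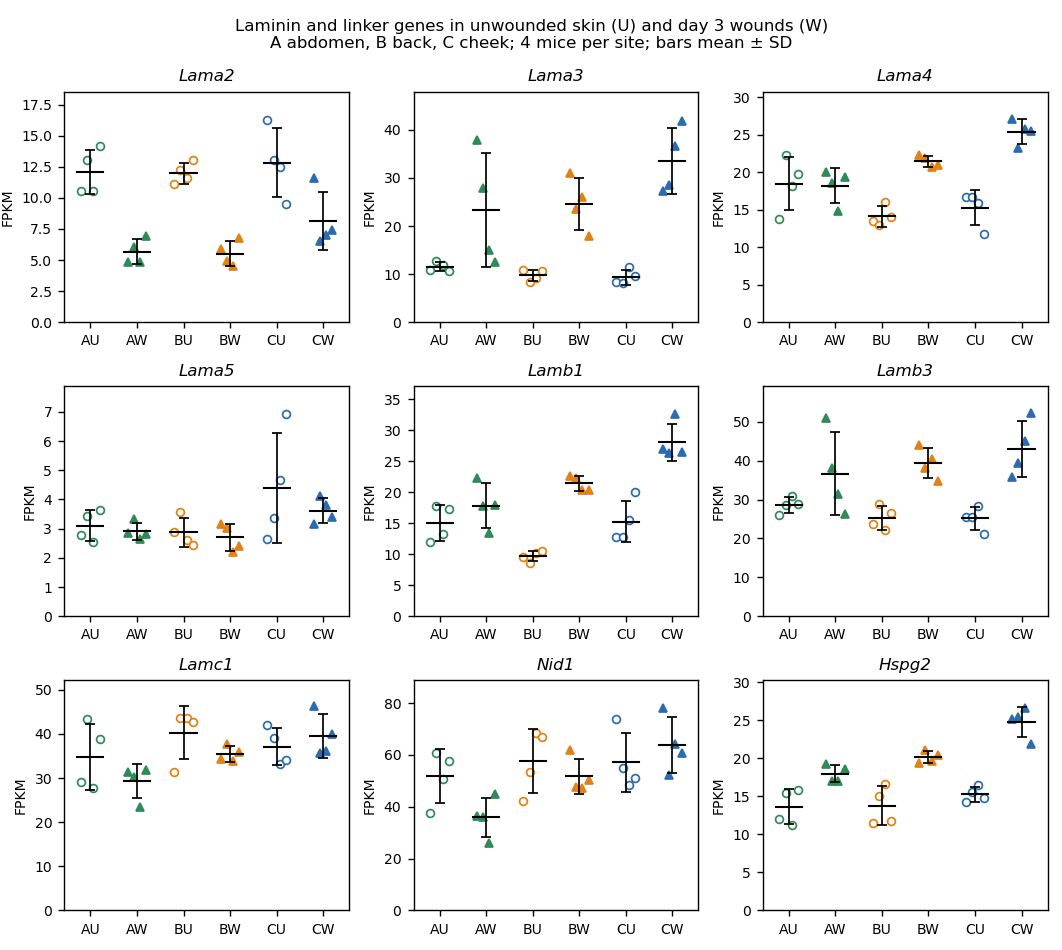
Each panel plots 1 gene in FPKM on a linear axis from 0, with 1 point per mouse (open, unwounded skin; filled, wound) and the mean ± SD of 4 libraries as black bars. Lama3 and Lamb3 stand higher in wounds of back and cheek, Lama2 wound means are lower at each site, and Lama5 and Lamc1 overlap between states.

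The libraries carried the RNA of the cell types a full-thickness skin punch holds, and no gene of the 10 marker lists was at 0 in any group. Sums of 4 wound-activated keratin genes (Krt6a, Krt6b, Krt16 and Krt17) ran from 387 to 1280 FPKM in unwounded skin and from 2110 to 14700 FPKM in wounds. The lowest and the highest of these wound sums were both from abdomen (mouse 4 and mouse 1). Skeletal muscle genes summed to 449 and 2420 FPKM in the unwounded abdomen skin of mice 2 and 3, and to between 10100 and 20200 FPKM in the other unwounded libraries. Fewer cells of a type and less RNA per cell cannot be told apart in such bulk samples.

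Wounding was tested with limma on log2(FPKM + 0.5), with a term for each mouse and a threshold of adjusted p under 0.001. At that threshold, 1 of the 9 genes was called in abdomen, where 4.96% of 14423 tested genes were called, 3 of 9 in back (14.4% of all genes) and 5 of 9 in cheek (8.69%). At an adjusted p under 0.05 the counts were 4 in abdomen (32.9% of all genes), 6 in back (45.9%) and 6 in cheek (36.6%). Wound and unwounded libraries did not overlap for 2 genes in abdomen (24.4% of all genes), 6 in back (40.4%) and 5 in cheek (31.7%). The median log2 difference of the 9 genes came to -0.01 for abdomen, 0.55 for back and 0.68 for cheek, beside -0.015, 0.066 and 0.012 over all tested genes. Lama2 was called lower at all 3 sites, Lama3 and Lamb1 were called higher in back and cheek, and Lama4 and Hspg2 were called higher in cheek.

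**Figure D2:**
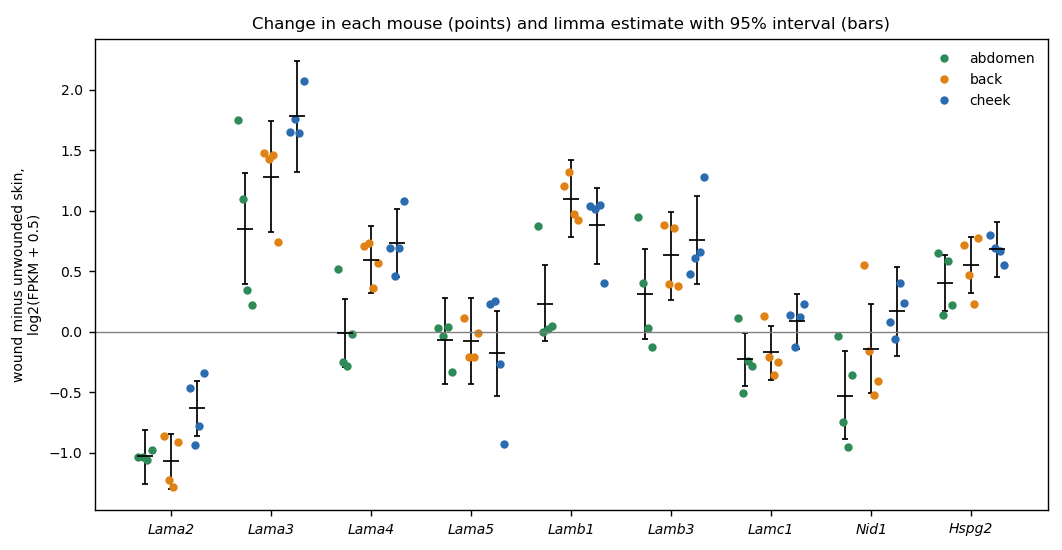
The vertical axis is the wound minus unwounded difference in log2(FPKM + 0.5), with 1 coloured point per mouse and the limma estimate with its 95% interval in black, 3 sites per gene. All 12 mice lie below 0 for Lama2 and above 0 for Lama3 and Hspg2, while abdomen mouse 1 stands alone above its site for Lamb1 and Lama4.

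Lama3 encodes the alpha 3 chain of the epidermal laminin and had the largest differences of the 9 genes in back and cheek. In abdomen, Lama3 was at 10.92, 12.72, 11.83 and 10.61 FPKM in unwounded skin of mice 1 to 4 and at 37.97, 27.87, 15.08 and 12.43 FPKM in their wounds. In back it was at 10.81, 8.44, 9.14 and 10.54 FPKM and at 30.96, 23.62, 26.06 and 17.92 FPKM in wounds. In cheek the unwounded values were 8.31, 8.09, 11.43 and 9.55 FPKM and the wound values 27.24, 28.53, 36.58 and 41.83 FPKM. Every wound in back and cheek was above every unwounded library of its site, and in abdomen the log2 differences were 1.75, 1.1, 0.34 and 0.22 for mice 1 to 4, with the wound of mouse 4 inside the unwounded range. Lama3 rose by 1.28 ± 0.21 (SE) on the log2 scale in back (2.42-fold, adjusted p = 0.00052) and by 1.78 ± 0.21 in cheek (3.44-fold, adjusted p = 7.1e-05). The back call was lost without back mouse 1, 2 or 3 (adjusted p = 0.0038, 0.0043 and 0.0041) and with quantile normalization (0.0013). In abdomen the difference was 0.85 ± 0.21 (adjusted p = 0.0099), which did not pass the threshold, and was 0.55 (adjusted p = 0.04) without mouse 1.

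Lamb3 encodes the beta 3 chain, which shares its trimer with alpha 3. Its unwounded levels were 26.13, 28.71, 30.98 and 28.79 FPKM in abdomen, against 50.85, 38.01, 31.54 and 26.32 FPKM in the wounds of the same mice. In back the values were 23.71, 28.97, 22.05 and 26.59 FPKM unwounded and 44.04, 38.1, 40.43 and 34.8 FPKM in wounds. In cheek they were 25.52, 25.55, 28.44 and 21.19 FPKM unwounded and 35.81, 39.33, 45.08 and 52.26 FPKM in wounds. Back and cheek wounds lay above all unwounded libraries of their sites, whereas abdomen groups overlapped. No difference of Lamb3 passed 0.001: it was 0.31 ± 0.17 in abdomen (adjusted p = 0.18), 0.63 ± 0.17 in back (adjusted p = 0.0095) and 0.76 ± 0.17 in cheek (adjusted p = 0.0043).

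Within libraries, Lama3 stood at a median of 0.400, 0.406 and 0.364 of Lamb3 in unwounded abdomen, back and cheek and at 0.605, 0.633 and 0.780 in wounds. The lowest wound ratio was above the highest unwounded ratio at each site. This ratio and those to Lamc1 given below were chosen after the values were seen and are descriptions.

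Wound-activated keratins were set beside both chains in the wounds. In abdomen wounds of mice 1 to 4 the keratin sums were 14700, 7400, 6350 and 2110 FPKM, in the same order as Lama3 and Lamb3. Cheek mouse 1, with the lowest cheek keratin sum (4240 FPKM), also had the lowest cheek wound level of each chain, but the highest levels were in mouse 4 (8940 FPKM) and not in mouse 3 (12000 FPKM). In back the keratin sums of mice 1 to 4 were 8840, 9250, 10900 and 6170 FPKM, with both chains highest in mouse 1 and lowest in mouse 4. Basal keratinocyte genes summed to between 3500 and 5700 FPKM in unwounded skin and to between 5150 and 10800 FPKM in wounds. The genes of this list did not move together. Means of Krt14 and Krt5 were higher in wounds at each site, and those of Krt15 and Trp63 were lower. Krt14 went from 1610, 1360 and 1210 FPKM in abdomen, back and cheek to 4960, 5390 and 4870 FPKM. Krt15 went from 1300, 923 and 1030 FPKM to 651, 540 and 583 FPKM. The median log2 difference of the list was 0.27, 0.33 and -0.12. The part of these keratinocyte levels in the laminin differences was not tested.

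**Figure D3:**
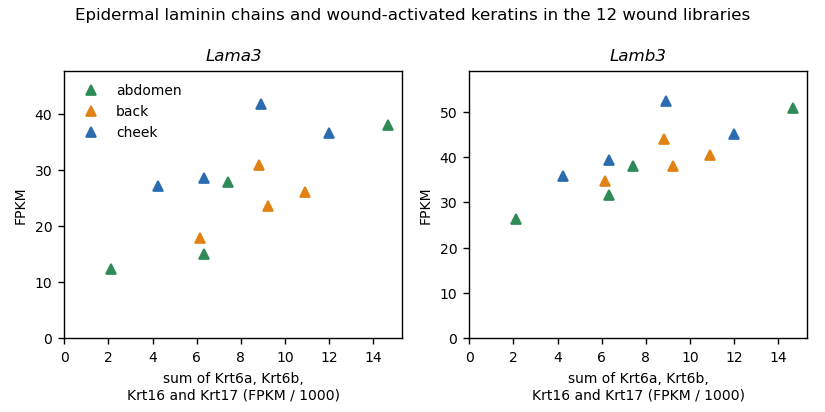
The horizontal axis is the summed FPKM of 4 wound-activated keratin genes divided by 1000 and the vertical axis the FPKM of Lama3 or Lamb3, 1 triangle for each of the 12 wound libraries, coloured by site. Abdomen spans the widest range on both axes, from mouse 4 (2110 FPKM of keratins) to mouse 1 (14700 FPKM).

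Lama5, the alpha 5 chain of epidermal and vascular laminins, was the lowest of the set and no call was made for it. It ranged from 2.45 to 6.93 FPKM in unwounded libraries and from 2.2 to 4.11 FPKM in wounds. The highest value belonged to unwounded cheek skin of mouse 4, whose cheek neighbours stood at 2.64, 3.37 and 4.67 FPKM. Wound differences were -0.07 in abdomen (95% interval -0.43 to 0.28), -0.08 in back (-0.43 to 0.28) and -0.18 in cheek (-0.53 to 0.17). The cheek value was 0.071 without mouse 4.

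Lama2, the alpha 2 chain, was the only gene of the 9 called lower. In abdomen it was at 10.59, 13.05, 10.59 and 14.15 FPKM in unwounded skin and at 4.88, 6.08, 4.82 and 6.94 FPKM in wounds of the same mice. In back it was at 11.09, 12.21, 11.63 and 13.07 FPKM unwounded and at 5.87, 4.91, 4.49 and 6.74 FPKM in wounds. In cheek it was at 16.26, 13.08, 12.46 and 9.54 FPKM unwounded and at 11.58, 6.56, 7.03 and 7.44 FPKM in wounds. Groups were apart in abdomen and back, and in cheek the wound of mouse 1 exceeded the unwounded skin of mouse 4. Lama2 fell in 12 of 12 mice, to 0.489 of the unwounded level in abdomen (log2 difference -1.03 ± 0.10, adjusted p = 3.1e-05), 0.476 in back (-1.07 ± 0.10, adjusted p = 8e-06) and 0.644 in cheek (-0.63 ± 0.10, adjusted p = 0.00058). The cheek call was lost without mouse terms (adjusted p = 0.0071) and with the 8 cheek libraries alone (0.012). It was also lost without abdomen mouse 2, 3 or 4 or cheek mouse 1, 2 or 3 (adjusted p from 0.001 to 0.005). With the 8 abdomen libraries alone the abdomen call was lost (0.001).

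Marker sums of Schwann cells, fibroblasts, adipocytes and skeletal muscle had lower group medians in wounds than in unwounded skin at each site. Schwann cell genes had group medians of 79.4, 130 and 108 FPKM in unwounded abdomen, back and cheek and of 33.9, 61.9 and 63.0 FPKM in wounds, and fibroblast genes 4160, 3150 and 3290 FPKM against 2540, 2310 and 2470 FPKM. Within the fibroblast list Pdgfra, a receptor of platelet-derived growth factor, differed the other way in back (0.58 ± 0.16, adjusted p = 0.01) and cheek (0.59 ± 0.16, adjusted p = 0.012), without a call at 0.001. Adipocyte genes had medians of 797, 889 and 845 FPKM in unwounded skin and of 491, 502 and 485 FPKM in wounds. Skeletal muscle genes had medians of 7620, 16500 and 15500 FPKM in unwounded skin and of 3030, 3890 and 5600 FPKM in wounds. In abdomen the muscle sums of mice 1 to 4 went from 13900, 449, 2420 and 12800 FPKM to 1630, 2320, 3740 and 4860 FPKM, higher in the wound in mice 2 and 3, and Lama2 was lower in the wound of each of the 4. The part of these cell types, muscle included, in the Lama2 decrease was not tested.

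Lama4, the alpha 4 chain of vessel laminins, was called in cheek. In abdomen it was at 13.77, 22.3, 18.17 and 19.7 FPKM unwounded and at 19.98, 18.61, 14.86 and 19.36 FPKM in wounds. In back it was at 13.44, 12.95, 16.02 and 13.96 FPKM unwounded and at 22.27, 21.88, 20.72 and 21.02 FPKM in wounds. In cheek it was at 16.65, 16.67, 15.84 and 11.8 FPKM unwounded and at 27.14, 23.18, 25.81 and 25.48 FPKM in wounds. Back and cheek wounds were above all their unwounded libraries, and abdomen wounds lay inside the unwounded range. Lama4 rose by 0.73 ± 0.13 in cheek (1.66-fold, adjusted p = 0.00094), just inside the threshold. The call was lost on leaving out any mouse but abdomen mouse 1 (adjusted p up to 0.0052). It was also lost with median-ratio scaling (0.0023), quantile normalization (0.0024), no filter (0.0017), moderation without trend and robust (0.0016) and the 8 cheek libraries alone (0.006). The Lama4 difference was 0.59 ± 0.13 in back (adjusted p = 0.0026) and -0.01 ± 0.13 in abdomen (adjusted p = 0.96).

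Lamb1, the beta 1 chain shared by vascular and mesenchymal laminins, was called in back and cheek. In abdomen the values were 11.95, 17.83, 13.26 and 17.28 FPKM unwounded and 22.23, 17.78, 13.46 and 17.9 FPKM in wounds. In back they were 9.58, 8.64, 10.17 and 10.56 FPKM unwounded and 22.6, 22.29, 20.41 and 20.43 FPKM in wounds. In cheek they were 12.86, 12.8, 15.47 and 19.99 FPKM unwounded and 26.99, 26.31, 32.56 and 26.51 FPKM in wounds. The 8 wounds of back and cheek were above every unwounded library of their sites. Lamb1 rose by 1.1 ± 0.15 in back (2.15-fold, adjusted p = 8.6e-05) and by 0.88 ± 0.15 in cheek (1.83-fold, adjusted p = 0.00066), the first of which was lost without back mouse 2 (adjusted p = 0.001). The cheek call held without abdomen mouse 1 or 2 or cheek mouse 4 and was lost without any of the other 9 mice (adjusted p up to 0.0053). It was also lost with no filter (0.0013), moderation without trend and robust (0.0011) and the 8 cheek libraries alone (0.0054). In abdomen the difference was 0.23 ± 0.15 (adjusted p = 0.24), and only mouse 1 moved, by 0.87, against 0.00 to 0.05 in the other 3 mice.

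Lamc1, the gamma 1 chain common to the laminins with alpha 2, alpha 4 and alpha 5, was not called at any site. It spanned 27.81 to 43.66 FPKM in unwounded skin and 23.53 to 46.31 FPKM in wounds. The differences were -0.23 ± 0.10 in abdomen (adjusted p = 0.1), -0.17 ± 0.10 in back (adjusted p = 0.19) and 0.09 ± 0.10 in cheek (adjusted p = 0.54), with 95% intervals from -0.45 to 0.31 over the 3 sites. The median ratios of its partners to it differed between states. Lamb1 stood at a median of 0.428 of Lamc1 in unwounded abdomen, 0.240 in back and 0.397 in cheek, and at 0.580, 0.597 and 0.701 in wounds. Lama4 stood at 0.511, 0.348 and 0.411 of Lamc1 in unwounded skin and at 0.624, 0.600 and 0.644 in wounds, while Lama2 stood at 0.365, 0.293 and 0.356 and then at 0.203, 0.152 and 0.190. The states overlapped for the Lama4 ratio in abdomen (0.474 to 0.653 unwounded, 0.608 to 0.636 in wounds). They also overlapped for the Lamb1 ratio in cheek (0.305 to 0.586 unwounded, 0.583 to 0.903 in wounds). At the other sites these ratios were apart, as was the Lama2 ratio at each site. In unwounded back skin the Lamb1 ratio ran from 0.198 to 0.306, below the 0.412 to 0.477 of abdomen, and wounds of both sites overlapped. Ratios of RNA are not ratios of trimers, since a chain can also pair with partners not counted in the ratio.

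**Figure D4:**
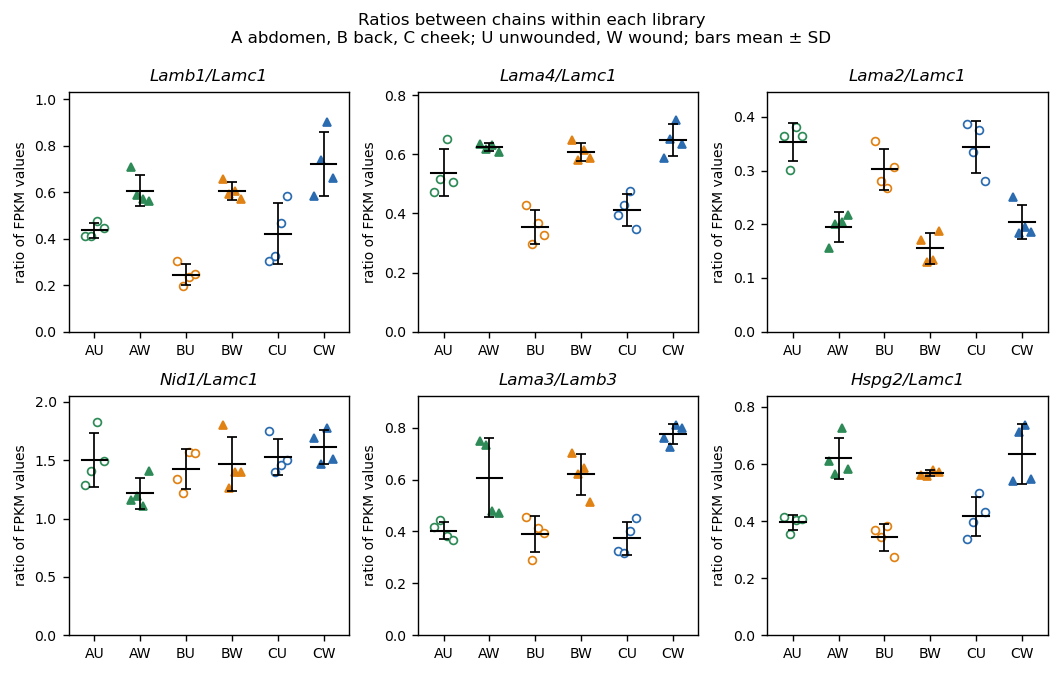
Each panel plots the ratio of the FPKM values of a pair of genes in 1 library on a linear axis from 0, with 4 mice per group (open, unwounded; filled, wound) and the mean ± SD. Lama3/Lamb3 and Hspg2/Lamc1 are higher in each wound than in any unwounded library of its site, and Lama2/Lamc1 is lower, while Nid1/Lamc1 overlaps between states.

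The linkers took separate courses. Hspg2 was at 12.02, 15.44, 11.27 and 15.83 FPKM in unwounded abdomen and at 19.21, 17.03, 17.07 and 18.57 FPKM in the wounds. In back it was at 11.53, 15.1, 16.67 and 11.77 FPKM unwounded and at 19.33, 21.09, 19.64 and 20.47 FPKM in wounds. In cheek it was at 14.25, 15.51, 16.51 and 14.78 FPKM unwounded and at 25.11, 25.38, 26.61 and 21.93 FPKM in wounds. Wounds and unwounded skin did not overlap at any site, and 12 of 12 mice were higher in the wound. Hspg2 rose by 0.68 ± 0.10 in cheek (1.60-fold, adjusted p = 0.00038). That call was lost without any 1 of the 4 cheek mice (adjusted p from 0.001 to 0.003) and with the 8 cheek libraries alone (0.0023). The Hspg2 differences of 0.55 ± 0.10 in back (adjusted p = 0.0011) and 0.40 ± 0.10 in abdomen (adjusted p = 0.012) did not pass 0.001.

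Nid1 was the most abundant of the 9 genes in unwounded skin and was called at no site. In abdomen it was at 37.53, 60.89, 50.87 and 57.72 FPKM unwounded and at 36.54, 35.94, 26.08 and 44.8 FPKM in wounds. In back it was at 42.02, 53.29, 68.27 and 66.84 FPKM unwounded and at 61.76, 47.53, 47.32 and 50.2 FPKM in wounds. In cheek it was at 73.85, 54.81, 48.44 and 51.15 FPKM unwounded and at 78.18, 52.42, 64.16 and 60.56 FPKM in wounds. All 4 abdomen mice were lower in the wound, with log2 differences from -0.95 to -0.04, and mice of back and cheek went either way. The differences were -0.53 ± 0.17 in abdomen (adjusted p = 0.032), -0.14 ± 0.17 in back (adjusted p = 0.54) and 0.17 ± 0.17 in cheek (adjusted p = 0.48). Nid1 stayed close to Lamc1, at 1.22 to 1.83 times its level in unwounded libraries and 1.11 to 1.80 times in wounds.

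Blood vessels, whose basement membranes hold alpha 4, nidogen and perlecan, were followed by a marker list. The 7 endothelial markers summed to between 79.7 and 123 FPKM in unwounded skin and to between 116 and 151 FPKM in wounds, with medians of 121, 140 and 148 FPKM in abdomen, back and cheek wounds. Of these 7 markers, 2 were called higher in abdomen (4.96% of all genes were called), 4 in back (14.4%) and 3 in cheek (8.69%). Cdh5, the adhesion molecule of endothelial junctions, was called at all 3 sites (1.82-fold, 1.56-fold and 1.63-fold). Tek went the other way, with means of 8.43, 9.2 and 10.7 FPKM in unwounded abdomen, back and cheek and of 5.7, 6.98 and 8.75 FPKM in wounds. Means of the other markers were higher in wounds at each site. The part of vessel content in the levels of Lama4, Lamb1, Nid1 and Hspg2 was not tested.

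In unwounded skin, 0 of the 9 genes differed between sites at an adjusted p under 0.05, beside 2.67% of 13956 tested genes between back and abdomen, 2.57% between cheek and abdomen and 1.05% between cheek and back. At an unadjusted p under 0.05 in limma, 2, 1 and 1 of the 9 were counted in these comparisons, beside 22% (back against abdomen), 19% (cheek against abdomen) and 21.6% (cheek against back) of all genes. Lamb1 was nearest to a call. Its unwounded back libraries (8.64 to 10.56 FPKM) lay below all those of abdomen (11.95 to 17.83 FPKM) and of cheek (12.8 to 19.99 FPKM), with a difference of -0.59 ± 0.16 from abdomen (adjusted p = 0.068) and of 0.60 ± 0.16 for cheek against back (adjusted p = 0.092). Lamb1 was the 1 gene of the 9 whose groups did not overlap in back against abdomen (13.3% of all genes) and in cheek against back (14.6%), and 0 of 9 were apart in cheek against abdomen (10.6%). The Lamb1 difference of back from abdomen had an adjusted p of 0.046 without abdomen mouse 1 and of 0.034 without cheek mouse 4, and both Lamb1 differences passed when all 24 libraries shared 1 estimate of the spread (adjusted p = 0.015 and 0.022). The median over all genes was itself off 0, at -0.12 (back minus abdomen) and 0.14 (cheek minus back).

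Among the 12 wound libraries, calls between sites were made in cheek against abdomen only. All 9 genes had a positive difference in cheek against abdomen and in cheek against back. The median over all tested genes was also above 0 in these comparisons, at 0.067 and 0.086. In cheek against abdomen 5 of 9 genes were called at an adjusted p under 0.05, all higher in cheek, where 10.8% of 14023 tested genes were called. These were Nid1 (0.83 ± 0.16, 1.78-fold, adjusted p = 0.013), Lamb1 (0.66 ± 0.13, 1.58-fold, adjusted p = 0.013), Lama4 (0.48 ± 0.09, 1.39-fold, adjusted p = 0.012), Hspg2 (0.45 ± 0.07, 1.37-fold, adjusted p = 0.0066) and Lamc1 (0.43 ± 0.11, 1.35-fold, adjusted p = 0.03). The 5 were also the genes whose cheek and abdomen wounds did not overlap (19.0% of all genes). Lama2, Lama3, Lama5 and Lamb3 differed by 0.47, 0.63, 0.27 and 0.26 and were not called (adjusted p from 0.1 to 0.34). The median of the 9 was 0.47, beside 0.067 over all genes. In the same comparison, 2 of 5 fibroblast markers (Pdgfra, 0.60, and Pi16, 1.33) and 2 of 7 skeletal muscle markers (Acta1 and Myh4) were called higher in cheek. So were 1 of 5 for Schwann cells, 1 of 7 for endothelium (Tek, 0.57) and 1 of 5 for neutrophils (Csf3r). The fibroblast list as a whole had a median of -0.12. Dpt, Lum and Dcn had means of 209, 441 and 1550 FPKM in cheek wounds, below 218, 527 and 1750 FPKM in abdomen wounds. For pericytes and smooth muscle 1 of 6 was called lower (Tagln, -0.42), while the median of that list was 0.14. The part of these cell types in the site differences was not tested. Nid1, Lamb1, Lama4 and Hspg2 kept their calls in all 9 other settings and whichever of the 12 mice was left out. Lamc1 lost its call when all 24 libraries entered (adjusted p = 0.067), and without abdomen mouse 3 (0.064), cheek mouse 1 (0.066) or cheek mouse 4 (0.062).

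Back wounds had no call against either site. Against abdomen wounds, 0 of 9 genes were called (1.27% of all genes) and 4 did not overlap (9.16%), namely Lama4, Lamc1, Nid1 and Hspg2, each higher in back by 0.24, 0.28, 0.54 and 0.16. Against back wounds, cheek wounds had 0 of 9 called (2.5% of all genes) and 4 that did not overlap (21.3%), namely Lama4, Lama5, Lamb1 and Hspg2. In limma an unadjusted p under 0.05 was counted for 5 of 9 genes in each of these comparisons, beside 16.5% and 26.1% of all genes. The smallest adjusted p was 0.056, for Hspg2 in cheek against back (0.29 ± 0.07). Without abdomen mouse 3, cheek against back gave 3 calls, Lama4 (adjusted p = 0.044), Lamb1 (0.039) and Hspg2 (0.039). Exact permutation tests of 4 libraries against 4 reached their smallest two-sided p of 0.0286 in 15 of 54 tests of the 9 genes over 6 site comparisons, with adjusted p of 0.1 or more. For wounding, sign changes within 4 mice cannot give a two-sided p under 0.125.

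**Figure D5:**
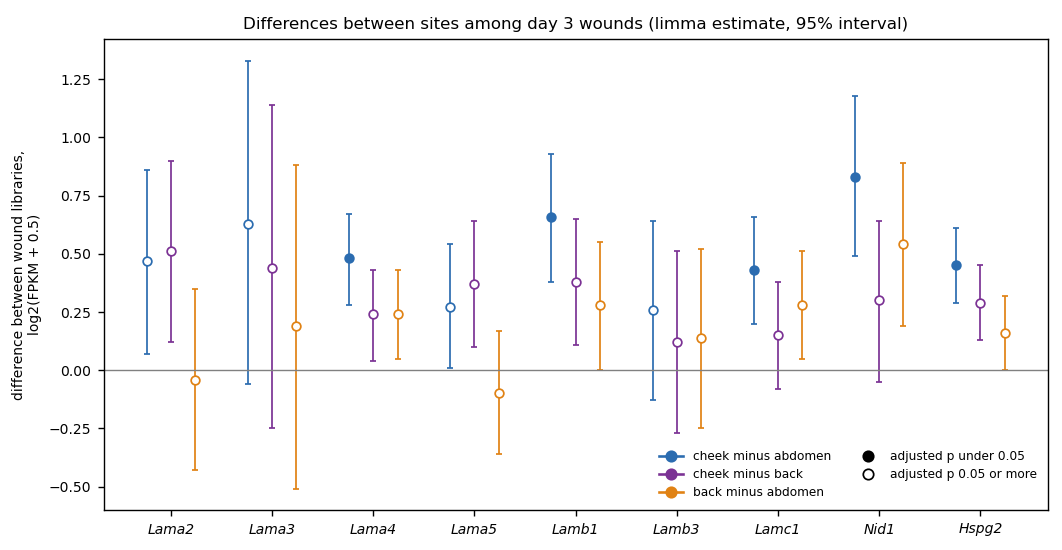
The vertical axis is the difference between wound libraries of 2 sites in log2(FPKM + 0.5), with the limma estimate and 95% interval for each gene and pair of sites (filled, adjusted p under 0.05). Cheek minus abdomen is filled for Lama4, Lamb1, Lamc1, Nid1 and Hspg2 and every cheek estimate is above 0.

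Whether the wound response itself differed between sites was tested with a moderated F test. Of the 9 genes 0 were called at an adjusted p under 0.05, beside 0.0208% of all genes, and 5 of 9 had an unadjusted p under 0.05, beside 12.9% of all genes. The smallest adjusted p values were those of Lamb1 and Lama4 (0.23 each), whose abdomen estimates (0.23 and -0.01) lay under those of back and cheek. Abdomen mouse 1 bore on this result. Without it, 3 genes of the set were called, Lamb1 (adjusted p = 0.022), Lama4 (0.024) and Lama3 (0.045), among 2.19% of all genes. The abdomen wound differences were then 0.02 for Lamb1, -0.19 for Lama4 and 0.55 for Lama3. Mouse 1 had the highest keratin sum of any wound and a neutrophil gene sum of 2390 FPKM against 344 to 1540 FPKM in the other 11 wounds. The muscle gene sum of its unwounded skin was 13900 FPKM, near the 12800 FPKM of mouse 4 and above mice 2 and 3 (449 and 2420 FPKM). The part of these in its laminin values was not tested.

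A list of 43 further basement membrane genes gives the surroundings, of which 41 passed the filter. At the wound threshold 3 of 41 were called higher and 1 lower in abdomen, 5 and 7 in back, and 8 and 4 in cheek, where 4.96%, 14.4% and 8.69% of all genes were called in either direction. Among network collagens, Col4a1 and Col4a2, the chains of the common collagen IV, and Col7a1, the anchoring fibril collagen below the epidermis, had positive differences at each site, and Col4a3, Col4a4, Col4a5 and Col4a6, the chains of specialised collagen IV networks, had negative ones. Col4a1 rose by 0.83 ± 0.13 in back and 0.87 ± 0.13 in cheek, Col7a1 by 0.63 ± 0.10 and 0.88 ± 0.10, and Col4a2 by 0.77 ± 0.13 in cheek. Col4a3 fell by 1.30 in back and 0.97 in cheek, Col4a4 by 1.18 and 1.14, and Col4a6 by 1.04 and 1.12 on the log2 scale. Col4a3 and Col4a4 were near the floor, with back means of 1.31 and 1.36 FPKM unwounded and 0.232 and 0.318 FPKM in wounds. The size of their log2 differences therefore depends on the added 0.5 FPKM. In abdomen 0 of the 8 network collagens were called at 0.001, where 4.96% of all genes were. At an adjusted p under 0.05 all 8 passed there, 3 higher and 5 lower in the wound, beside 32.9% of all genes.

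Lamb2, the gene of the beta 2 chain, stood at 35.9 ± 2.33, 36.0 ± 6.02 and 35.9 ± 6.94 FPKM in unwounded abdomen, back and cheek. In wounds it stood at 21.0 ± 3.09, 23.5 ± 2.96 and 24.8 ± 6.0 FPKM, without a call at 0.001 (adjusted p from 0.0021 to 0.013). Lamc3 and Ntn4, a netrin that binds laminin gamma chains, had differences of -0.63 to -0.90 without a call. Nid2, the second nidogen, differed by 0.54 ± 0.18, 0.69 ± 0.18 and 0.88 ± 0.18 in abdomen, back and cheek (adjusted p = 0.035, 0.007 and 0.0023), each positive where Nid1 gave -0.53, -0.14 and 0.17. Among linkers, Col18a1, the collagen that yields endostatin, rose at all 3 sites (1.76-fold, 2.38-fold and 2.07-fold), Pxdn, the peroxidase that crosslinks collagen IV, rose in cheek (0.72 ± 0.13), and Sparc (-1.22), Smoc2 (-1.08) and Npnt (-0.62) fell in back.

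Of the 12 receptors and anchors, 1 was called higher and 1 lower in abdomen, 1 and 1 in back, and 2 and 1 in cheek, beside the same 4.96%, 14.4% and 8.69% of all genes. The integrin beta 4 gene Itgb4 and alpha 3 gene Itga3, whose products hold the epidermal laminin, were not called (0.06, 0.13 and 0.42, and 0.16, 0.23 and 0.20 in abdomen, back and cheek). Itgb1 rose in back (0.68 ± 0.12) and cheek (0.76 ± 0.12), and Itga7, the alpha 2 laminin receptor of muscle, rose in abdomen (0.94 ± 0.13) and cheek (0.92 ± 0.13). Dst, the plakin that ties hemidesmosomes to keratin, fell in abdomen (-0.70 ± 0.11) and back (-0.62 ± 0.11), and Bcam, a receptor for alpha 5 laminins, fell in cheek (-0.58 ± 0.09). Of the enzymes that trim laminins and collagens, Mmp9 rose at all 3 sites (2.34-fold, 3.09-fold and 4.81-fold) and Bmp1, Tll1, Mmp2 and Mmp14 were not called.

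Among wounds, 7 of 39 companion genes tested were called in cheek against abdomen (10.8% of all genes), all higher in cheek: Itga2 (0.82 ± 0.23), Nid2 (0.80 ± 0.23), Pxdn (0.75 ± 0.15), Tll1 (0.68 ± 0.18), Col4a1 (0.56 ± 0.16), Itgb1 (0.44 ± 0.09) and Plec (0.23 ± 0.07). Itga2 and Tll1 were low, with means of 2.19 and 1.6 FPKM in cheek wounds and 1.09 and 0.842 FPKM in abdomen wounds. The median over the 39 was 0.15, against 0.47 for the laminin and linker set. No companion was called between back and abdomen wounds or between cheek and back wounds. In unwounded skin Col7a1 was lower in back (-0.44 ± 0.10) and cheek (-0.68 ± 0.10) than in abdomen, Col17a1 was lower in cheek than in abdomen (-0.52 ± 0.10), and Ntn4 was higher in cheek than in back (0.69 ± 0.14).

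Likeness of pattern was measured as Pearson's r of log2(FPKM + 0.5) over the 24 libraries, which share mice and the wound contrast, so r is a description. Among the genes most like Lama3 were Mapk6 (r = 0.965), Sh2d5 (0.96) and Hbegf (0.959), and among those most like Lamb3 were Lama3 (0.943), Ptges (0.923) and Gsta1 (0.922). The gamma 1 chain and nidogen 1 were each among the 3 ranked genes most like the other. For Lamc1 the nearest of the ranked genes was Nid1 (0.861), followed by Dact1 and Nox4. For Nid1 the nearest was Nox4 (0.891), ahead of Lamc1 (0.861) and Dact1 (0.859). Laminin genes outside the lists used here were not ranked. Lama2 was most like Tbc1d16 (0.954), Abca8a (0.953) and Timp3 (0.947), Lama4 like Pros1 (0.921), Lama5 like Bnc2 (0.891), Lamb1 like Flna (0.967) and Hspg2 like Tln1 (0.926). With group means removed, Lama3 and Lamb3 gave r = 0.814, Lamc1 and Nid1 0.784, and Lama2 and Lamb2 0.783. Lama4 and Nid1 gave 0.732 within groups but 0.328 over all 24 libraries, and Lama2 and Lama4 gave 0.549 within groups but -0.37 over all. Hspg2 and Nid1, the linkers of the set, gave 0.318 within groups.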

How the data were processed

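RNA from 12 CD1 mice (24 libraries) was sequenced for the authors by a provider. The authors deposited FPKM values per gene, rounded to 2 decimals and not scaled between libraries. Per the paper and the submitters' processing notes, reads were mapped to mm10 with HISAT2 and to transcripts with Bowtie2 (2.2.5) and quantified with RSEM (1.2.12). The deposited table of the authors' own comparisons (DESeq2 log2 ratios with their adjusted p-values) was not used. Gene values merge the transcripts of a gene.

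The members and lists were chosen with earlier results of these data known. Named genes are all 9 members and, from a list of 43 companions, those described by group, the called ones first; Lamb2, Nid2 and the ratios were singled out after values were seen. Some listed genes are not reported here. FPKM values were analysed as log2(FPKM + 0.5), so fold changes of low genes are understated. limma (3.58.1, statmod 1.5.0, R 4.3.3; trend, robust) was fitted to genes that reached 0.5 FPKM in 4 or more libraries. Wound effects used 24 libraries with 12 mouse terms and a threshold of 0.001, and site differences used the 12 libraries of a state and 0.05, thresholds taken from the paper. Benjamini-Hochberg adjustment ran over all tested genes of a comparison. Sums of FPKM were 490830 to 561753 in unwounded and 532586 to 608888 in wound libraries. The depth is unknown. Tested on simulated data, the wound fit recovered 114 of 200 genes changed by a log2 difference of 1 (57%, 1 other gene, 14260 genes) and the comparison of wounds 165 (82.5%, 9 others, 14042 genes). The simulated libraries had no effect shared by a mouse, and only genes with a mean log2 level above 1 were changed. These shares therefore need not hold for the paired data. The libraries of a mouse are paired by the labels: deviations from group means correlated with a mean r of 0.322, 0.348 and 0.281 in abdomen, back and cheek (lowest -0.0299). Mice were separate animals. Alternatives were other pseudocounts, filters, scalings, moderation, model terms and leaving out each mouse.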

Additional observations from a re-analysis of the deposited data

Results flagged for a closer look

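Of 54 groups of 4 libraries (9 genes in 6 groups), 3 held a library whose gap to its nearest neighbour, divided by the range of the group, exceeded Dixon's 95% critical value, which chance does in about 1 in 20 groups. Lama4 was at 11.8 FPKM in unwounded cheek skin of mouse 4, where the other 3 libraries were at 15.84 to 16.67 FPKM (0.83 of the range). Lamb1 was at 32.56 FPKM in the cheek wound of mouse 3, against 26.31 to 26.99 FPKM in the others (0.891). Lamc1 was at 31.27 FPKM in unwounded back skin of mouse 1, against 42.73 to 43.66 FPKM (0.925). These gaps touch the Lama4 rise in cheek, the Lamb1 difference between cheek and abdomen wounds and the level of Lamc1 in back.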

How the results depend on the processing

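Of the recomputed single-gene values, 1772 kept their direction and their side of the threshold, 51 lost a call, 16 gained one and 42 changed sign, and of the recomputed counts 185 stayed within 1.5 times and 24 moved. Without the replicate block (no mouse terms) back gave 5 calls and not 3 (Lama4 and Hspg2 added), and the cheek call of Lama2 was lost while Lamb3 gained one (adjusted p = 0.00071). Mouse numbers shared across sites do not pair animals, and the block by mouse number changed no other call. With the block fitted to the 8 libraries of a site alone, abdomen gave 0 calls and cheek 1. Cheek gave 3 calls with no filter and 3 with moderation without trend and robust. With all 24 libraries, back against abdomen and cheek against back each gave 1 call in unwounded skin. When each mouse was left out, calls ranged from 1 to 5 in back (1 without back mouse 2, 5 without abdomen mouse 1), 1 to 5 in cheek (1 without cheek mouse 1, 2 or 3), 0 to 1 for unwounded back against abdomen, 0 to 3 for cheek against back wounds (3 without abdomen mouse 3) and 0 to 3 for the difference in response (3 without abdomen mouse 1). The cause was not tested. Sign changes concerned values near 0 that were not called. With median-ratio scaling they were Lama2 (0.12) and Lama5 (0.017) in unwounded back against abdomen, Lamb1 (-0.014) in cheek against abdomen, Lama2 (-0.077) and Lama4 (-0.05) in cheek against back, and Lama2 (0.00091) in back against abdomen wounds. With quantile normalization they were, in the same order of comparisons, Lama2 (0.07), then Lama2 (-0.0023) and Lamb1 (-0.046), then Lama2 (-0.072) and Lama4 (-0.032). When each mouse was left out, wound differences ranged from -0.19 to 0.081 (Lama4, abdomen), -0.11 to 0.0093 (Lama5, abdomen) and -0.32 to 0.071 (Lama5, cheek). In unwounded back against abdomen the ranges were -0.084 to 0.087 (Hspg2) and -0.06 to 0.074 (Lama2), in cheek against abdomen -0.12 to 0.099 (Lamb1), -0.0014 to 0.23 (Nid1) and -0.048 to 0.2 (Lama2), and in cheek against back -0.046 to 0.2 (Lama2), -0.071 to 0.07 (Lamb3) and -0.15 to 0.083 (Nid1). In back against abdomen wounds they were -0.14 to 0.051 (Lama2), -0.059 to 0.47 (Lama3) and -0.006 to 0.31 (Lamb3). Scaling by median ratios moved the median over all genes of unwounded back against abdomen from -0.12 to -0.0028 and of cheek against back from 0.14 to 0.00036. FPKM values keep no counts, so precision rests on 4 mice per site.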
